A study of Mus musculus with 4 samples.

Results

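The transcripts of 10 genes that are read as an output of FGF-ERK signalling were followed in mouse embryonic stem cells (ESC) kept with MS-275. They were the Sprouty genes Spry1, Spry2 and Spry4, the Sprouty-related genes Spred1 and Spred2, the phosphatase genes Dusp4 and Dusp6, the ETS factor genes Etv4 and Etv5, and the immediate early gene Egr1. They were taken by symbol from the 28250 genes listed for each library, and all 10 were listed and passed the filter on low values. The cells were TBV2, a mouse ESC line grown on feeder cells, moved to gelatin and kept in the presence of LIF, the cytokine that holds mouse ESC undifferentiated. One group received solvent for 24 h and the other 5 µM MS-275 (entinostat), an inhibitor of class I histone deacetylases, for 24 h. Each group had 2 RNA-seq libraries. The sources used here name different vehicles for the control cells, so they are called solvent. TBV2 is 1 line, and no source says whether the 2 libraries of a group came from separate cultures. The p-values therefore measure the spread between these libraries, which may be technical, with each gene's spread estimated in part from other genes.

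FGF4 made by ESC themselves binds FGF receptors and, through GRB2, SOS, RAS and a chain of kinases, activates the kinases ERK1 and ERK2. This signal readies mouse ESC to leave the undifferentiated state. Active ERK induces transcription of EGR1 within minutes, of the ETS factors ETV4 and ETV5, and of its own inhibitors. Sprouty and SPRED proteins restrain the pathway around RAS, DUSP6 removes phosphate from ERK in the cytoplasm and DUSP4 in the nucleus, so the transcripts of these genes are widely used as a readout of the pathway.

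The deposited measurement is a normalized expression value per gene made with Genomatix. Its formula is not given in the sources used here, so values are compared for the same gene between libraries and not between genes. Over all genes the values added up to between 2489.6 and 4358.6, and to more in replicate 2 than in replicate 1 of either condition. The header of the value table calls replicate 1 of both conditions old, and libraries with the same replicate number deviated from their group means together (r = 0.764 across 20336 genes, which are not independent). Libraries were therefore also compared within replicate pairs, in a fit with the replicate number as a block. With so few libraries, the standard error (SE) of a gene in that fit draws largely on the spread of other genes. The positions of the aligned reads were deposited as well, between 9785619 and 23467935 for each library. Across 6858 genes, the difference between the replicates of a condition had the opposite sign in values and in alignments (r = -0.952 with solvent and -0.921 with MS-275), so the alignments of replicates 1 and 2 appear exchanged within each condition. Alignments are named below by the values they follow. The exchange moves no sample between the conditions. The alignments that follow replicate 1 had no repeated position in either condition, and of those that follow replicate 2, 53.2% repeated a position with solvent and 54.4% with MS-275.

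After 24 h with MS-275, Egr1 was 11.45-fold higher than with solvent in pair 1 and 5.48-fold higher in pair 2. Etv5, Etv4 and Spry4 were lower in both pairs. In limma with the replicate block, these were the 4 members past the threshold of a Benjamini-Hochberg adjusted p under 0.05. The 1 member that rose is set against 21.0% of the 20336 genes tested that rose, and the 3 that fell against 6.46% of these genes that fell. Spry1, Spry2, Spred1, Spred2, Dusp4 and Dusp6 did not pass. Without the block limma called no member in either direction, with 0 members at an unadjusted p under 0.05. Of all genes tested that fit called 0.00492% higher (1 gene) and 0.0% lower (0 genes). Before adjustment, 2974 genes were higher and 564 lower with a p under 0.05.

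**Figure D1:**
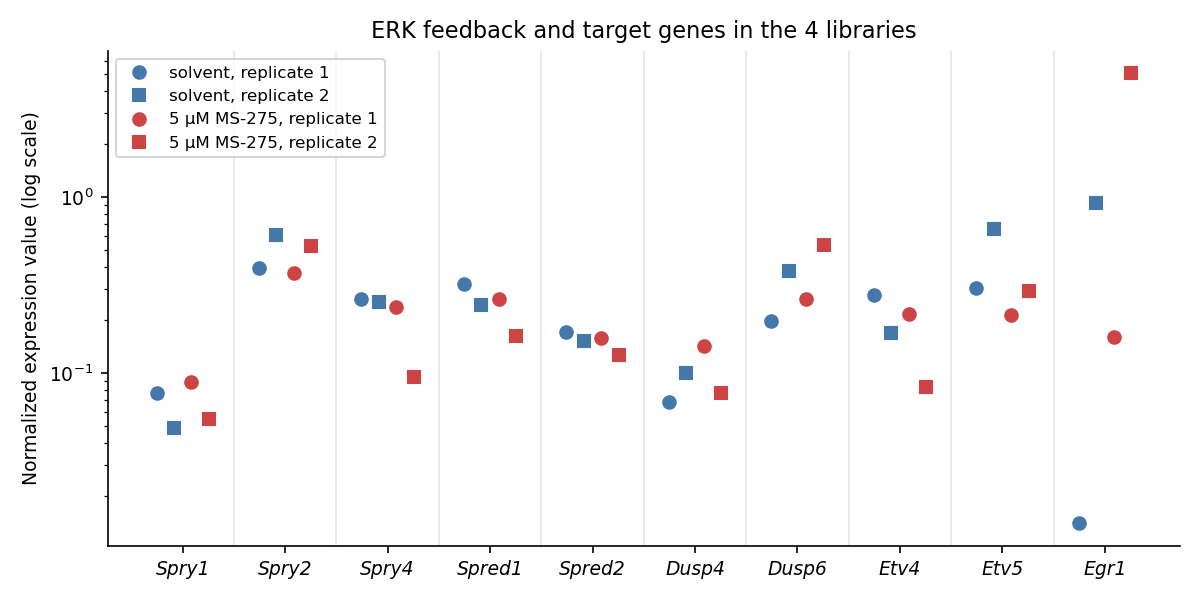
Normalized expression value (log axis, arbitrary units) of each of the 10 genes in the 4 libraries, with solvent in blue, MS-275 in red, replicate 1 as circles and replicate 2 as squares. Both MS-275 values lie below both solvent values for Spry4 and Etv5, and the groups overlap for the other 8 genes.

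The median log2 fold change of the 10 genes was -0.17, against 0.20 over all genes tested. Within pair 1 the medians were -0.10 and 0.13, and within pair 2 they were -0.31 and 0.24. Over all genes the balance thus leant towards higher values with MS-275, and the genes described here leant the other way. Of the members, 3 were higher in both pairs (Spry1, Dusp6 and Egr1) and 6 lower, where 50.0% of all genes tested were higher in both pairs and 26.5% lower. Only Egr1 changed at least 2-fold in both pairs, as did 11.5% of all listed genes upwards. No member fell as far in both pairs, and 2.04% of all listed genes did. The libraries of the groups did not overlap for Spry4 and Etv5 among the members, both lower, and for 12.0% of all genes tested in that direction. No member was higher without overlap, against 32.3% of all genes.

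**Figure D2:**
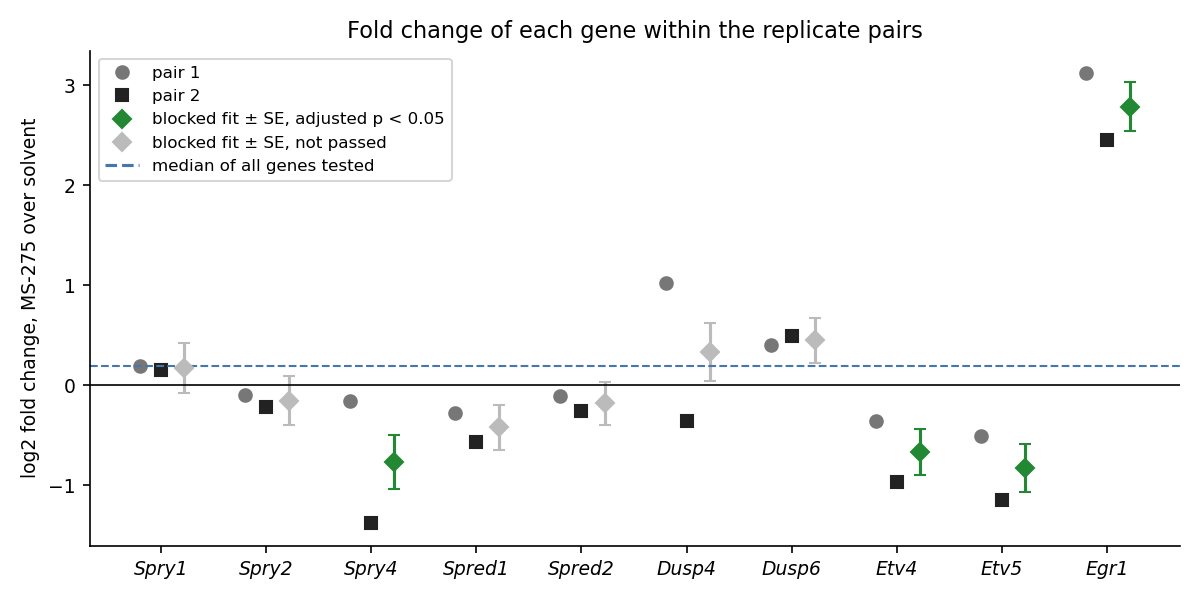
Log2 fold change of each gene, MS-275 over solvent on the log2(value + 0.005) scale, within pair 1 (circle), within pair 2 (square) and in limma with the replicate block (diamond, bar ± 1 SE, green where the adjusted p was under 0.05). Egr1 is the green point above the dashed median of all genes (0.20), and Spry4, Etv4 and Etv5 are the green points below it.

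Etv4 and Etv5 belong with Etv1 to the PEA3 group of ETS factors. Etv5 (chromosome 16, 22381382 to 22439792, minus strand, mm9) was at 0.306 and 0.655 with solvent (replicates 1 and 2) and at 0.213 and 0.294 with MS-275. Both MS-275 libraries lay below both solvent libraries, and replicate 2 was the higher one in each group. Its log2 fold change was -0.51 in pair 1, -1.14 in pair 2 and -0.83 (SE 0.242) in limma with the replicate block, with a Benjamini-Hochberg adjusted p of 0.0186. Without the block the adjusted p was 0.458. Among the members that were lower, Etv5 was the one that fell in each of the 8 limma fits with the block, over other pseudocounts, filters, scalings and counted alignments, with adjusted p from 8.07e-05 to 0.0307. With a library left out its log2 fold change ran from -1.37 (without solvent replicate 1) to -0.28 (without solvent replicate 2).

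Etv4 (chromosome 11, 101631056 to 101646685, minus strand, mm9) was at 0.278 and 0.168 with solvent and at 0.215 and 0.0833 with MS-275. Within each pair the MS-275 library was lower, but replicate 1 with MS-275 was above replicate 2 with solvent, so the groups overlapped. The log2 fold changes were -0.36 and -0.97, and -0.67 (SE 0.230, adjusted p = 0.0419) in limma with the block. Without the block the limma adjusted p was 0.594, and with it Etv4 passed in 5 of the 8 fits, with adjusted p from 0.00138 to 0.0598. When MS-275 replicate 2 was left out the log2 fold change of Etv4 was -0.01, and when MS-275 replicate 1 was left out it was -1.32. Etv1, the remaining gene of the group, was at 0.0527 and 0.0330 with solvent and at 0.0291 and 0.0161 with MS-275. Both MS-275 values were below both solvent values, with a log2 fold change of -0.81 (SE 0.295) and an adjusted p of 0.0527 in limma with the block. Etv1 passed in 5 of the 8 fits with the block, as Etv4 did.

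ETS factors bind DNA at sites that can read GGAAGT, called the core below. Promoters of 6 of the 10 members were searched for it on both strands. Sites with other bases around GGA were not counted as the core. The RefSeq windows on GRCm38.p6 each held 300 bases, from 250 before a gene start to 50 after it. Etv5 had 2 windows. No window of Spry4, Dusp4, Etv4 or Egr1 was used. Their promoters were therefore not searched, and the matches below say nothing about them. The core was present in 2 of the 7 windows used, 1 of Etv5 and 1 of Spred2, and in 23.8% of the 32851 windows searched. Both are shown because they are the windows that hold the core, with the core in capitals, reading GGAAGT in Etv5 and its reverse complement in Spred2. The Etv5 window lies at chr16:22438319-22438618 on the minus strand, with cores from -217 to -212 and from 2 to 7 relative to the gene start. The Spred2 window lies at chr11:19924192-19924491 on the plus strand, with its core from -33 to -28.
Etv5: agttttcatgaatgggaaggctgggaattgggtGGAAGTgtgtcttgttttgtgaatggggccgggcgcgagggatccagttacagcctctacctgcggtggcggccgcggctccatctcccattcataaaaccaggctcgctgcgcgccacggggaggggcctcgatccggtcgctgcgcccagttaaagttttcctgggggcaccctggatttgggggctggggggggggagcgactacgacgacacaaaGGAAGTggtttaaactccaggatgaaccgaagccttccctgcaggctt
Spred2: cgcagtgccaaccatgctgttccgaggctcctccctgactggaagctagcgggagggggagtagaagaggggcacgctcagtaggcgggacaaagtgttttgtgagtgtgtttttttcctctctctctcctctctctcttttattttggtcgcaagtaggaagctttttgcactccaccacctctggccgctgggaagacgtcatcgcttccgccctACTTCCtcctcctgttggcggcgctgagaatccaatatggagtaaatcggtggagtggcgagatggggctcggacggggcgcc
None of the 7 windows held the longer ETS site CCGGAAGT (3.89% of all windows), which contains the core, the AP-1 site TGACTCA (5.20%), the cAMP response element TGACGTCA (1.79%), the EGR site GCGTGGGCG (0.612%) or a CArG box (1.63%). The members' windows held a median of 28 CpG dinucleotides, against 7 over all windows. These matches describe letters in the windows and not bound sites.

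Sprouty proteins are inhibitors of receptor tyrosine kinase signalling that act around RAS. Spry4 (chromosome 18, 38745922 to 38760922, minus strand, mm9) was at 0.264 and 0.253 with solvent and at 0.236 and 0.0942 with MS-275. Both MS-275 libraries were lower than both solvent libraries, but replicate 1 was close to them and the difference lay mainly in replicate 2. The log2 fold change was -0.16 in pair 1 and -1.38 in pair 2, and -0.77 (SE 0.266, adjusted p = 0.0420) in limma with the block. That SE draws largely on the spread of other genes, so passing does not show that the 2 pairs agreed. Without the block the limma adjusted p was 0.479, and with it Spry4 passed in 5 of the 8 fits, with adjusted p from 0.00117 to 0.0724. Leaving out MS-275 replicate 2 gave a log2 fold change of -0.13, and leaving out MS-275 replicate 1 gave -1.41.

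Spry2 (chromosome 14, 106291166 to 106296036, minus strand, mm9) was at 0.396 and 0.610 with solvent and at 0.370 and 0.524 with MS-275. Replicate 2 was the higher library in both groups, and the groups overlapped. Its log2 fold change with the block was -0.16 (SE 0.245, limma adjusted p = 0.677). Spry1 (chromosome 3, 37538869 to 37543520, plus strand, mm9) was at 0.0771 and 0.0487 with solvent and at 0.0887 and 0.0547 with MS-275. Here replicate 1 was the higher library in both groups and the groups again overlapped. The log2 fold change of Spry1 was 0.17 (SE 0.250, limma adjusted p = 0.653 with the block), and it took the opposite sign with quantile normalization (-0.03) and with median-ratio scaling (-0.09). The 3 Sprouty genes thus gave values on either side of 0, with a fall that passed the test for Spry4 alone, and differences between these genes were not tested.

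SPRED proteins bring neurofibromin, which turns RAS off, to the membrane. Spred1 (chromosome 2, 116947110 to 117008015, plus strand, mm9) was at 0.318 and 0.243 with solvent and at 0.262 and 0.163 with MS-275. The MS-275 library was the lower one in each pair, and the groups overlapped. Its log2 fold change was -0.42 (SE 0.223, limma adjusted p = 0.176 with the block), and it passed in 3 of the 8 fits with the block, with adjusted p from 0.00474 to 0.190. Spred2 (chromosome 11, 19824378 to 19924029, plus strand, mm9) was at 0.170 and 0.152 with solvent and at 0.158 and 0.127 with MS-275. The groups overlapped. The log2 fold change was -0.18 (SE 0.219, limma adjusted p = 0.578 with the block). In the introns of its annotated gene model, the share of distinct alignment positions was higher by 20.1 points in pair 1 and 26.2 points in pair 2 with MS-275, and 0.183% of 5996 genes rose by 20 points or more in both pairs.

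Of the phosphatases, Dusp6 (chromosome 10, 98725865 to 98730122, plus strand, mm9) was at 0.198 and 0.378 with solvent and at 0.263 and 0.535 with MS-275. Replicate 2 exceeded replicate 1 by 1.91-fold with solvent and by 2.03-fold with MS-275, while MS-275 exceeded solvent by 1.33-fold in pair 1 and 1.42-fold in pair 2. The groups overlapped, and the log2 fold change was 0.45 (SE 0.227, limma adjusted p = 0.156 with the block). Dusp4 (chromosome 8, 35870351 to 35882948, plus strand, mm9) was at 0.0680 and 0.100 with solvent and at 0.143 and 0.0771 with MS-275. It was the member whose direction differed between the pairs, with log2 fold changes of 1.02 and -0.36. Its limma adjusted p with the block was 0.427 for a log2 fold change of 0.33 (SE 0.289).

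Egr1, a zinc finger transcription factor, was at 0.0139 and 0.926 with solvent and at 0.159 and 5.08 with MS-275 (chromosome 18, 35020861 to 35024638, plus strand, mm9). Both replicate 2 libraries were above both replicate 1 libraries, so that the MS-275 library of replicate 1 lay below the solvent library of replicate 2. Within the pairs the log2 fold changes were 3.12 and 2.45. In limma with the block Egr1 rose by 2.78 on the log2 scale (SE 0.244, adjusted p = 2.23e-06), and without the block the SE was 1.77 and the adjusted p 0.502. It rose in each of the 8 fits with the block, with adjusted p from 3.07e-08 to 0.000107. The value rests on all 4 libraries being compared in pairs. Fits with a library left out had no block and so carry the offset between the replicates. The log2 fold change of Egr1 was then -0.03 without solvent replicate 1 and 5.59 without solvent replicate 2. It was 5.26 without MS-275 replicate 1 and 0.31 without MS-275 replicate 2. Egr1 shares 8 of its exon bases with a gene on the other strand, Gm17507, and the sources used here do not say whether counting used the strand.

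In the values, the distance between the replicates of Egr1 was larger than its response to MS-275. Replicate 2 was 66.5-fold above replicate 1 with solvent and 31.9-fold above it with MS-275. Distinct exon positions, scaled to those of the library, put Egr1 at 3.78 and 162 with solvent and at 45.1 and 369 with MS-275. These are the alignments that follow replicates 1 and 2. On that scale the distance with MS-275 was smaller than the response in pair 1 and larger than that in pair 2. The distance with solvent was larger than both responses. In the values, the smaller distance of Egr1 (4.95 on the log2 scale, with MS-275) was reached in both conditions by 15 of the 20336 genes (0.0738%). These 15 include Egr1 and have replicate 2 higher. Fos, an immediate early gene whose protein forms AP-1 with JUN, was at 0.0218 and 0.737 with solvent and at 0.111 and 3.40 with MS-275. It had the same order of libraries as Egr1, with replicate 2 above replicate 1 by 33.7-fold and 30.6-fold. Its own smaller distance (4.79) was reached in both conditions by 19 genes (0.0934%), Fos included. Its log2 fold change was 2.15 (SE 0.224, limma adjusted p = 8.98e-06 with the block).

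The other EGR genes encode related zinc finger factors. Egr2 was listed at 0 in solvent replicate 1, at 0.124 in solvent replicate 2, and at 0.0132 and 0.720 with MS-275. Egr3 was at 0.00131 and 0.0145 with solvent and at 0.00561 and 0.0670 with MS-275. Egr4 was at 0.00049 and 0.00243 with solvent and at 0.00349 and 0.00952 with MS-275. In each of these genes replicate 2 was above replicate 1 in both conditions and MS-275 above solvent in both pairs, and for Egr4 the groups did not overlap. All rose in limma with the block, by 2.18 (Egr2, adjusted p = 4.86e-05), 1.32 (Egr3, 0.00811) and 0.80 (Egr4, 0.0218) on the log2 scale, and none passed without it (adjusted p = 0.616, 0.553 and 0.262). Egr3 passed in 7 of the 8 fits with the block (limma adjusted p up to 0.0527) and Egr4 in 6 of the 7 that could test it (up to 0.246).

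**Figure D3:**
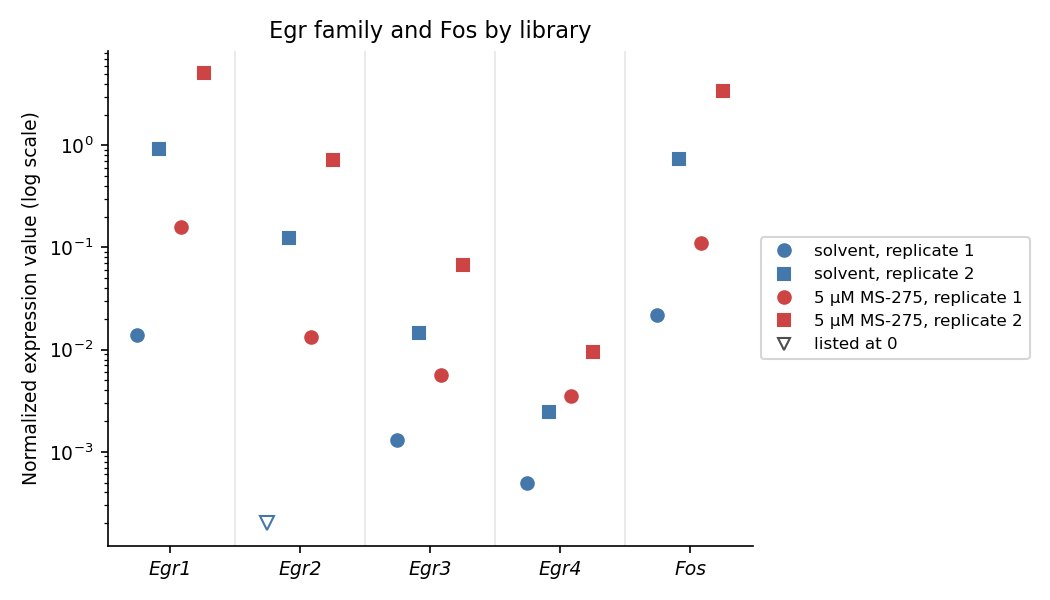
Normalized expression value (log axis, arbitrary units) of the EGR genes and Fos in the 4 libraries, with solvent in blue, MS-275 in red, replicate 1 as circles and replicate 2 as squares. Replicate 2 lies above replicate 1 and MS-275 above solvent within each pair for all 5 genes, and the open triangle marks Egr2 in solvent replicate 1, which is listed at 0.

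The aligned reads gave a second view of the members that also allows levels to be compared per length, as alignments per kilobase of exon in every 1000000 alignments. In the alignments that follow solvent replicate 1, Spry2 had the highest level of the 10 genes at 35.9 on this scale, followed by Etv5 (27.0), Spry4 (23.4), Etv4 (20.9), Spred1 (18.5), Dusp6 (18.2), Spred2 (15.5), Spry1 (6.65), Dusp4 (5.93) and Egr1 (1.22). In those that follow solvent replicate 2, Egr1 was the highest at 82.1, followed by Etv5 (42.0), Spry2 (41.1), Dusp6 (37.8), Spry4 (20.5), Spred1 (14.9), Spred2 (14.4), Etv4 (13.1), Dusp4 (7.09) and Spry1 (4.15). Spry1 and Dusp4 were thus low in both libraries and changed places with each other, and Egr1 moved from the last place to the first. Neighbours among Spry4, Etv4, Spred1, Dusp6 and Spred2 also changed places between the libraries and are not separated by these levels.

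Limma-voom on the alignments of each gene's exons, with the block, called 1 member higher (Egr1) and 4 lower (Etv5, Etv4, Spry4 and Spred1). This held for all alignments, where 19.5% of 17317 genes were called higher and 18.0% lower, and for distinct positions, where 23.7% of 16994 genes were called higher and 21.0% lower. Without the block, distinct positions gave 0 members higher (0 at an unadjusted p under 0.05) and 1 lower, Etv5, with a limma-voom adjusted p of 0.0177, where 12.2% of all genes were called higher and 7.94% lower. Limma with the block on values after median-ratio scaling, which sets the median of all genes at -0.01 and that of the members at -0.45, called the same 5 members (16.4% of all genes higher and 13.8% lower). After quantile normalization the medians were -0.19 for the members and -0.03 for all genes, so the members stayed below all genes under both scalings. With the block and quantile normalization Egr1 rose and Etv5, Etv4 and Spry4 fell, with 14.4% of all genes higher and 14.6% lower. With the block and another pseudocount or filter Egr1 rose and of the others only Etv5 fell. The shares of all genes called higher and lower were 20.7% and 6.0% with a pseudocount of 0.001, 18.6% and 5.69% with one of 0.02, and 18.7% and 7.4% where the mean had to reach 0.01.

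Egr1 had 37 exon alignments behind solvent replicate 1, 5972 behind solvent replicate 2, 492 behind MS-275 replicate 1 and 28080 behind MS-275 replicate 2. The order of the libraries was that of the values. The 5972 alignments fell on 1780 distinct positions, 28.7% of those possible on its exons on both strands, and the 28080 fell on 3366, 54.3% of those possible. With distinct positions in place of all alignments, each scaled to the total of its library, the log2 fold change of Egr1 in pair 2 went from 2.46 to 1.19. That of Etv5 in pair 2 went from -1.31 to -0.68 and that of Dusp6 from 0.50 to 0.06, while that of Spry4 was -1.49 and -1.29 and that of Etv4 -1.04 and -0.81. The changes of Egr1, Etv5 and Dusp6 in pair 2 were thus less far from 0 at distinct positions. A count of distinct positions has a ceiling for a gene with many alignments, and PCR copies and separate molecules at the same position cannot be told apart. In pair 1, without repeated positions, the log2 fold change in alignments was 3.58 for Egr1 and -0.58 for Etv5.

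**Figure D4:**
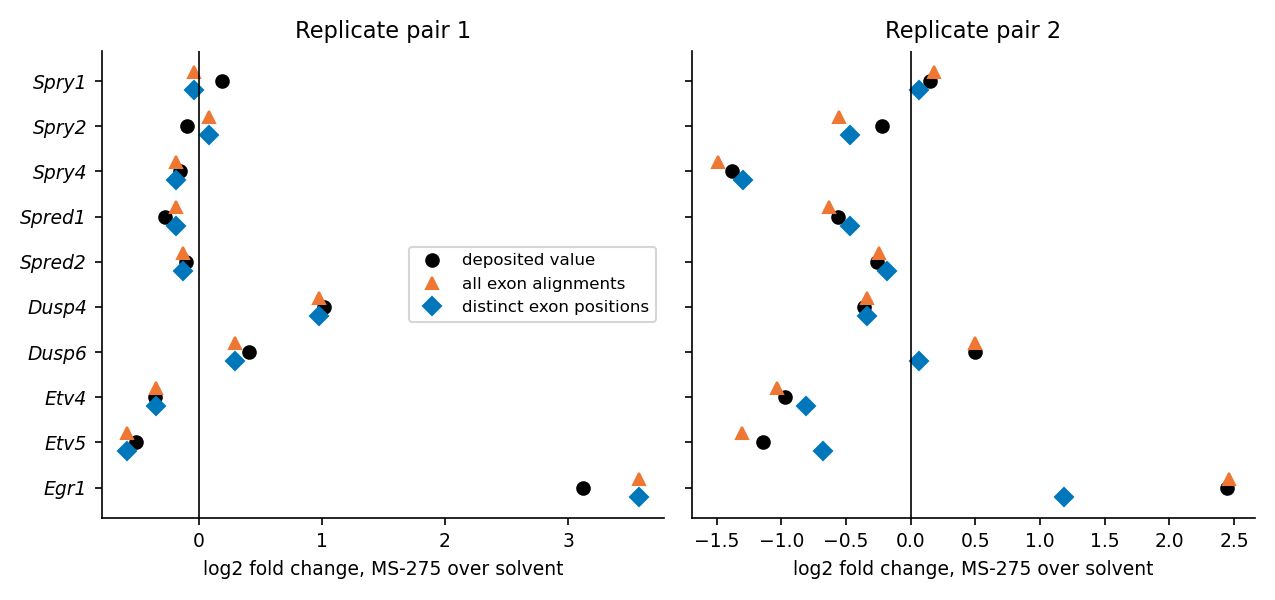
Log2 fold change, MS-275 over solvent, of the 10 genes in replicate pair 1 (left) and pair 2 (right, with its own axis range) from the deposited values (circles), all exon alignments (triangles) and distinct exon positions (diamonds), both scaled to the library. In pair 2 the diamond of Egr1 stands at 1.19 and its triangle at 2.46, and the measures of Spry4, Etv4 and Etv5 lie below 0 in both pairs.

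Further members of the same families, other targets and the pathway itself were read from the same fits. Of 15 other family members 14 were listed, and in limma with the block 9 of these 14 rose and 0 fell (3 at an unadjusted p under 0.05), with a median log2 fold change of 0.84. Of all genes tested 21.0% rose and 6.46% fell in that fit, and the counts of the lists that follow stand beside the same shares. None passed without the block, where 5 were higher at an unadjusted p under 0.05. Of the 9, 6 were Dusp genes. Dusp10, whose product acts on JNK and p38 more than on ERK, was at 0.0206 and 0.0270 with solvent and at 0.130 and 0.183 with MS-275, and rose by 2.48 (SE 0.254, limma adjusted p = 7.79e-06 with the block). Dusp1, a nuclear phosphatase of several MAP kinases, rose by 2.03 and Dusp5, a nuclear phosphatase of ERK, by 1.90, and the groups of all 3 genes did not overlap. Dusp14, Dusp2 and Dusp9 rose by 1.27, 0.88 and 0.80. Dusp2 passed in 4 of the 8 fits with the block (limma adjusted p up to 0.441) and Dusp9 in 5 of them (up to 0.132).

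Dusp7, like Dusp6 a cytoplasmic phosphatase of ERK, was at 0.0422 and 0.0313 with solvent and at 0.0242 and 0.0134 with MS-275. Both MS-275 libraries were lower, with a log2 fold change of -0.84 (SE 0.303) and a limma adjusted p of 0.0510 with the block, and it passed in 5 of the 8 fits. Dusp16 was at -0.54 (adjusted p = 0.104), Spred3 at 0.59 (0.159) and Dusp8 at 0.53 (0.171) on the log2 scale in limma with the block. With median-ratio scaling and the block, 7 of these 14 genes rose and 3 fell, beside 16.4% and 13.8% of all genes. With quantile normalization and the block 6 rose and 3 fell, beside 14.4% and 14.6% of all genes.

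Of 23 other immediate early and ERK target genes 22 were listed, and 10 rose and 1 fell with the block, with a median of 0.64. Those that rose most were Ctgf, a secreted matrix protein (2.57), Fos (2.15) and Ier3 (1.91). Ctgf was at 0.0668 and 0.265 with solvent and at 0.414 and 1.61 with MS-275, with the groups apart. The gene that fell was Ccnd1, which encodes cyclin D1, at 0.254 and 0.301 with solvent and 0.0906 and 0.0658 with MS-275. The log2 fold change was -1.78 (SE 0.234, limma adjusted p = 6.00e-05 with the block), both MS-275 values were below both solvent values, and it fell in each of the 8 fits.

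Of the cascade from adaptor to kinase 25 of 28 genes were listed, and 2 rose and 2 fell with the block around a median of 0.00, beside 21.0% of all genes that rose and 6.46% that fell. The scaffold gene Ksr1 rose by 1.25 and the adaptor gene Grb2 by 0.75 on the log2 scale, while the kinase gene Rps6ka2 fell by 0.72. Grb2 passed in 6 of the 8 fits with the block (limma adjusted p up to 0.142) and Rps6ka2 in 7 (up to 0.0645). Here the split depended on the scaling, as did the shares of all genes. With the block, 1 gene was higher and 6 lower after median-ratio scaling, beside 16.4% and 13.8% of all genes. After quantile normalization 2 were higher and 5 lower, beside 14.4% and 14.6% of all genes.

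Of 7 FGF ligand and receptor genes 3 rose and 1 fell with the block, with a median of 0.47. Fgf4, the ligand that ESC make, was at 0.573 and 0.397 with solvent and at 0.269 and 0.0922 with MS-275. Both MS-275 libraries were below both solvent libraries, and Fgf4 fell by 1.56 on the log2 scale (SE 0.254, limma adjusted p = 0.000337 with the block, 0.163 without it). The ligand gene Fgf8 was at 0.00256 and 0.00128 with solvent and at 0.0207 and 0.00952 with MS-275, and rose by 1.49 from these low values. The receptor genes Fgfr2 and Fgfr3 rose by 1.26 and 1.14, with Fgfr3 passing in 7 of the 8 fits with the block (limma adjusted p up to 0.159). Fgfr1, at 0.198 and 0.149 with solvent and at 0.252 and 0.143 with MS-275, did not pass (log2 fold change 0.14, adjusted p = 0.681).

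**Figure D5:**
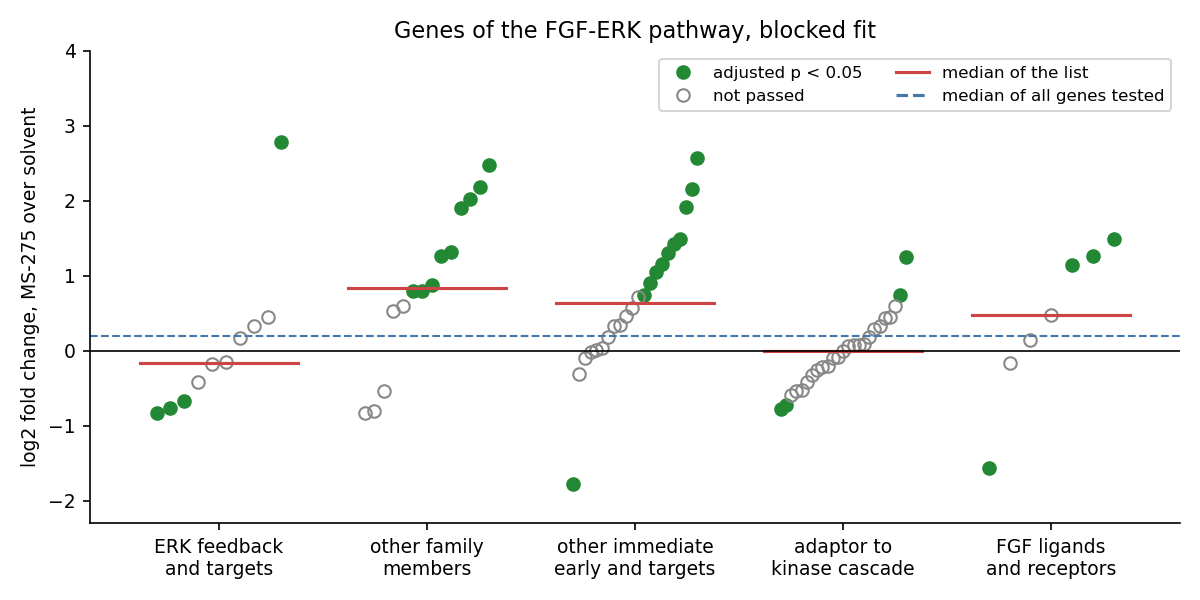
Log2 fold change in limma with the replicate block for the genes of 5 lists, filled where the adjusted p was under 0.05, with the median of each list in red and the median of all genes tested (0.20) as a dashed line. The 10 genes described here have a median of -0.17, and the other family members a median of 0.84 with 9 of 14 genes risen.

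Markers of the cells in the cultures were read in the same fits, and none of them passed without the block. Of 10 ESC markers 0 rose (0 at an unadjusted p under 0.05) and 3 fell in limma with the block (median -0.49). All 10 were lower in both pairs, beside 26.5% of all genes tested, and the groups were apart for 4, beside 12.0%. Dppa5a was almost unchanged in pair 1 (log2 fold change -0.0017). The summed value of the ESC markers was 6.01 and 23.5 with solvent and 4.96 and 13.9 with MS-275, with none at 0 throughout. Utf1, Esrrb and Pou5f1, which encodes OCT4, fell by 1.45, 1.34 and 0.95 on the log2 scale, and Pou5f1 passed in 5 of the 8 fits with the block. Of 12 feeder fibroblast markers 11 were tested, and 6 rose and 0 fell (1 at an unadjusted p under 0.05), with a median of 0.73. In both pairs 6 of them were higher and 3 lower, close to the 50.0% and 26.5% of all genes tested. The summed value of the feeder markers was 0.338 and 0.298 with solvent and 0.627 and 0.672 with MS-275. Col1a1 had the largest rise at 2.41, and Fap was under 0.001 in all 4 libraries. With the block the feeder markers split into 3 higher and 3 lower after quantile normalization, beside 14.4% and 14.6% of all genes. After median-ratio scaling 4 were higher and 1 lower, beside 16.4% and 13.8%. In both counts of alignments 5 were higher and 3 lower. The shares of all genes there were 19.5% and 18.0% for all alignments and 23.7% and 21.0% for distinct positions. The part of ESC state or of feeder cells in the values of the members was not tested, and in bulk RNA fewer cells of a type and less RNA per cell cannot be told apart.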

How the data were processed

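RNA from TBV2 ESC was selected for poly(A), primed with random hexamers and sequenced on an Illumina GAIIx, and the authors mapped the reads to mm9. The deposited values are a normalized expression signal per gene made with Genomatix, with no formula or version given in the sources used here. The deposited alignments are intervals of 35 bases with a score column that was not used as a measurement. Tables of the authors' ratios were not used, and no column of another sample was used (0 columns). The alignments per library ranged from 9785619 to 23467935. Intervals given with shares cover counting error only. Libraries were grouped by their titles, and the library called a duplicate was replicate 2.

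The members, lists and tests were chosen with earlier results of these data known. The 20336 genes that reached 0.001 in 2 or more of the 4 libraries were fitted as log2(value + 0.005) with limma 3.58.1 (lmFit, eBayes with a trend) in R 4.3.3, with Benjamini-Hochberg adjustment over all of them and a threshold of 0.05. Log2 fold changes of the values are on this scale, which understates those of low genes. Changes of the values given as a fold are ratios of the values themselves, with values under 0.001 set to 0.001 between conditions. The methods of the study state no test for the RNA-seq. The replicate number was added as a block in an alternative fit, since the headers call replicate 1 of both conditions old (r = 0.764 between same-numbered libraries). Alignments were counted on exons of GENCODE M1 genes (NCBIM37, the mm9 build), all or once per position, and genes with at least 10 in 2 libraries were fitted with limma-voom. The limma fits of the values, with and without the block, were run on simulated data. A limit on false calls was set there only for the fit without the block, and limma-voom was not tested in this way. Other work used Python 3.11.15, numpy 2.4.6, pandas 2.3.3, scipy 1.17.1 and matplotlib 3.10.9. The fit was also repeated with a pseudocount of 0.001 or 0.02, unfiltered or on genes whose mean reached 0.01, after median-ratio scaling or quantile normalization, with no trend, and with each library left out.

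Genes named are the members, their family members in the lists, and of each list up to 3 genes with the largest rise and 3 with the largest fall past the threshold with the block. Spry3, Junb, Frs3, Rps6ka3 and Elk1 were sought by symbol and Entrez identifier and did not match a row. Of the genes this rule names, 1 is not reported here. The lower dose was not analysed here.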

Additional observations from a re-analysis of the deposited data

Results flagged for a closer look

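The alignments in the introns of Spred2, outside the annotated exons that were counted, were more frequent with MS-275, while its expression value did not pass the test. Introns held 24.6% (95% exact binomial interval 21.9 to 27.5) and 28.6% (26.0 to 31.3) of the distinct positions of Spred2 with solvent, in the alignments that follow replicates 1 and 2. With MS-275 they held 44.7% (42.0 to 47.5) and 54.8% (52.1 to 57.5), and the intervals of the groups did not overlap. The share rose by 20.1 points in pair 1 and 26.2 points in pair 2, and 11 of 5996 genes (0.183%) rose by at least 20 points in both pairs, with medians over genes of -0.40 and -0.28 points. Most of the added positions were in intron 6 (mm9, chromosome 11, 19908481 to 19918054, 9574 bases). It held 30 and 119 distinct positions with solvent and 272 and 460 with MS-275, or 8.13-fold and 4.65-fold more relative to the distinct positions of the library. The flanking intron 7 gave ratios of 0.825 and 0.630, and intron 5 ratios of 6.05 and 3.09. Intron 5 had few positions, 4 and 14 with solvent and 27 and 36 with MS-275. The ratios were 1.08 and 1.1 for intron 1, 1.9 and 1.95 for intron 2, 0.897 and 0.401 for intron 3, and 1.68 and 3.55 for intron 4. About as many intron 6 positions lay on the strand of the gene (144 of 272 and 229 of 460 with MS-275) as on the other strand. The exons of Spred2 had a similar balance (403 of 711 and 305 of 602 with MS-275), so this does not set intron 6 apart. The intervals cover counting error only, the gene was noticed after its values were seen, and the sources of these alignments were not tested.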

How the results depend on the processing

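With the replicate block the count of members past the threshold went from 0 to 1 higher (Egr1) and from 0 to 3 lower (Spry4, Etv4 and Etv5), and to 1 and 3 with the block and quantile normalization. It was 1 and 1 with the block and a pseudocount of 0.001 or 0.02 or a mean of at least 0.01, and 1 and 4 with the block and median-ratio scaling, distinct positions or all alignments (the last was added after seeing the data). Distinct positions without the block gave 0 and 1. Other choices without the block gave 0 in both directions. With each library left out in turn the counts were 0 to 1 higher and 0 to 0 lower. A library left alone in its group is then assumed to vary like the others, and such fits carry the offset between replicates. The log2 fold change of Spry1 took the opposite sign with quantile normalization (-0.0259, with or without the block), median-ratio scaling (-0.0943, likewise), distinct positions (-0.1297, and -0.133 with the block) and all alignments (-0.133, and -0.1389 with the block). Leaving out a library moved it from -0.15 to 0.50, and turned the sign of Spry2 (-0.47 to 0.15), Dusp4 (-0.0948 to 0.75), Dusp6 (-0.0549 to 0.95) and Egr1 (-0.0266 to 5.59). The other members kept their direction in every fit run, but with a library left out they ran from -1.32 to -0.01 for Etv4, -1.41 to -0.13 for Spry4, -1.37 to -0.28 for Etv5, -0.76 to -0.08 for Spred1 and -0.33 to -0.03 for Spred2. The median of the members stayed below 0 in every fit, from -0.45 to -0.04, and the counts at least 2-fold changed in both pairs stayed at 1 and 0. The causes were not tested. With 2 libraries a group, a fold that falls within the spread of the replicates could not be told from none.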

Other observations

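Of the members other than Spred2, Etv5 and Etv4 had the largest share of distinct positions in introns. For Etv5 it was 39.1% and 51.1% with solvent (alignments that follow replicates 1 and 2) and 33.8% and 41.0% with MS-275, lower in both pairs as the exon value was. For Etv4 it was 26.2% and 40.6% with solvent and 23.3% and 46.3% with MS-275, with no common direction. The remaining 7 members had between 0.606% and 17.9% of their distinct positions in introns in any library.

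Jun, which encodes the partner of FOS in AP-1, and Fosb, a relative of Fos, were chosen here after their values were seen, for the distance between replicates. On the log2 scale replicate 2 was above replicate 1 by 4.78 with solvent and 4.99 with MS-275 for Fosb. The smaller of these distances was reached in both conditions by 20 of 20336 genes (0.0983%), Fosb included. For Jun the distances were 2.30 and 2.48, and 210 genes (1.03%), Jun included, reached the smaller of them in both conditions. These sit beside 5.62 and 4.95 for Egr1, and what differed between the replicates was not tested.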
